A study of Homo sapiens with 120 samples.

Results

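These results describe 8 mature miRNAs, of 2652 mature miRNA names in the tables, that were lower in HEK293T cells without PACT and TRBP. They are miR-204-5p, miR-218-5p, both arms of miR-324, both arms of miR-151a and both arms of miR-342. They were picked for their fall between the parental line and the line lacking both proteins in experiment 1, so that difference is described here without a test. All 8 had at least 10 reads in at least 6 libraries of every model, the limit for testing.

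HEK293T, written HEK293 in the sample titles, is a human embryonic kidney line, and every line used here, the controls included, carries a knockout of PKR, the kinase that senses double-stranded RNA (dsRNA). The study asked which proteins take part in RNA interference by long dsRNA in mammalian cells. Experiment 1 compared the PKR-knockout parental line (pOSI17) with derived lines labelled as also lacking PACT, TRBP, or both. Experiment 2 compared the parental line with lines labelled as also lacking Ago2, Ago1/2 or Dicer, and each line was transfected with Lipofectamine 3000 and no dsRNA (mock) or 1 of 2 long dsRNAs, dsGFPc and dsGFPd. Small RNA libraries came from total RNA and from RNA bound to Ago proteins that were purified with a peptide (Ago pulldown). Each combination of line, dsRNA and fraction had 2 libraries, which gives 6 per line and fraction and 96 in all. Nothing in the labels tells if those 2 came from separate cultures, so p-values cover only the spread among these libraries, or if a line is 1 clone. Small RNA libraries do not measure the mRNAs of the deleted genes, so each knockout is known from its label.

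A miRNA is cut from a hairpin in a longer transcript, first by Drosha and then by Dicer, which leaves a short duplex of a 5p and a 3p arm. One arm is kept by an Ago protein and guides it to mRNAs, mainly through bases 2 to 8, the seed. TRBP and PACT are related dsRNA-binding proteins that bind Dicer, and TRBP can shift where Dicer cuts some precursors. Among the members, miR-204-5p is best known from the retinal pigment epithelium, miR-218-5p from motor neurons, and miR-342 from blood cells. For miR-324, uridylation of the precursor is known to move the Dicer cut and to change which arm is used.

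The RefSeq sequences used here (GRCh38.p14) included 6 of the 8 members, looked up by name, and neither arm of miR-151a. These 6 are shown because they separate the members by seed. The seed is in capitals.
miR-204-5p: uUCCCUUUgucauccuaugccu
miR-218-5p: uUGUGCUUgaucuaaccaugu
miR-324-5p: cGCAUCCCcuagggcauuggug
miR-324-3p: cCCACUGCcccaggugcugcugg
miR-342-3p: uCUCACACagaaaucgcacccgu
miR-342-5p: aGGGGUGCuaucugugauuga
The 6 sequences held 6 distinct seeds, so the members shown share no seed. miR-211-5p, from another hairpin, has the seed of miR-204-5p and differs from it by A17U and U18C, counted from the 5′ end with the base of miR-204-5p first.
miR-211-5p: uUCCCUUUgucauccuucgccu

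The hairpins of miR-204, miR-324 and miR-342 are shown because their 2 arms are compared below. The arms are in capitals, with the 5p arm first.
MIR204: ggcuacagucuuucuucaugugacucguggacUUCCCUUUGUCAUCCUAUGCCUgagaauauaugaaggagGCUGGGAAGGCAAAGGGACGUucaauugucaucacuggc
MIR324: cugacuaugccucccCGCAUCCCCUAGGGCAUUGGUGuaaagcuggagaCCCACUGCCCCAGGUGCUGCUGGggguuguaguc
MIR342: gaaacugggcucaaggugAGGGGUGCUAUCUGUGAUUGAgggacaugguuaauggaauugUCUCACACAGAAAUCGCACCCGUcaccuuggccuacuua
On GRCh38.p14, MIR204 lies at chr9:70809975-70810084 on the minus strand within TRPM3, a cation channel gene on the same strand. MIR324 lies at chr17:7223297-7223379 on the minus strand, within the span of ACADVL, a gene of fatty acid oxidation on the plus strand. MIR342 lies at chr14:100109655-100109753 on the plus strand within EVL, an actin regulator gene on the same strand. miR-218-5p has the same sequence from both of its hairpins, MIR218-1 at chr4:20528275-20528384 within SLIT2 and MIR218-2 at chr5:168768146-168768255 within SLIT3, and MIR151A lies within PTK2, the gene of focal adhesion kinase. Whether these positions are exonic or intronic was not analysed here. The arms were separated by 12 bases in MIR324, 17 in MIR204, 21 in MIR342 and MIR218-2 and 22 in MIR218-1. The median was 16 (quartiles 14.8 and 19) over 200 hairpins with both arms in RefSeq. Only hairpins with an arm that passed the limit for testing in total RNA of experiment 1 were included.

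Values are normalised read counts, from which whole reads were recovered. In experiment 1, total RNA libraries held 406198 to 1103613 miRNA reads and pulldown libraries 2456303 to 13453153. Those of experiment 2 held 909703 to 4332218 and 1856110 to 7166262, except in the Dicer knockout, which had 39904 to 181166 and 47308 to 595303. Differences are of log2(value + 1), which understates changes of low values. Changes were called at an adjusted p under 0.05 by limma, over all miRNAs tested. In such bulk libraries, fewer cells with a miRNA and less of it per cell cannot be told apart.

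The contrast used for the choice is described first. In total RNA of experiment 1, miR-204-5p stood at 186.5, 215.5 and 295.1 normalised counts (lowest, median and highest of 6 libraries) in the parental line. Without PACT and TRBP these values were 66.71, 89.73 and 109.9. All 6 libraries of the double knockout lay below all parental libraries. In pulldown the parental values were 444.3, 860.4 and 1092.0, and those without both proteins 75.26, 174.7 and 204.0, again with no overlap. The difference was -1.39 in total RNA and -2.32 in pulldown.

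miR-218-5p had 440.0, 511.2 and 616.8 in parental total RNA and 245.1, 279.5 and 316.8 without both proteins, a difference of -0.85. In pulldown it overlapped, with 200.9, 245.8 and 323.7 against 151.6, 212.0 and 262.0 and a difference of -0.32. miR-324-5p, the 5p arm known as a regulator of Hedgehog signalling, had 77.36, 92.81 and 138.9 in parental total RNA and 24.08, 52.53 and 71.26 without both, a difference of -0.95. Its groups did not overlap in total RNA but did in pulldown, where the difference was -0.78. The 3p arm of the same hairpin differed by -0.55 in total RNA and by 0.14, upwards, in pulldown, with overlapping groups in both.

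Both miR-151a arms, from a hairpin in the gene of focal adhesion kinase, had separate groups in total RNA. miR-151a-3p had 2959.9, 3160.7 and 3268.2 in parental total RNA and 1789.5, 1963.6 and 2242.6 without both proteins, a difference of -0.67. miR-151a-5p had 480.1, 550.2 and 618.3 against 343.3, 406.4 and 432.2, a difference of -0.46. In pulldown, miR-151a-5p stayed apart (496.0, 598.5 and 721.3 against 382.2, 401.4 and 463.4), whereas the groups of miR-151a-3p overlapped.

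The miR-342 arms overlapped in both fractions. For miR-342-3p the total RNA difference was -0.57 and the pulldown one -0.16, and for miR-342-5p they were -0.11 and -0.35. The miR-342-5p value in total RNA was near those of many other miRNAs, since miR-92b-3p just inside it and miR-550a-3p just outside it were at -0.1096 and -0.1090, and it ranked 166 of 422 by size of fall where miR-204-5p ranked 5. Scaling all libraries to the same sum put it at 0.01.

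In all, 8 of 8 members were lower in total RNA (52.1% of all miRNAs tested were) and 7 of 8 in pulldown (59%). Their median differences were -0.62 and -0.42, beside -0.02 and -0.09 over all miRNAs. All libraries of the double knockout lay below all parental ones for 5 members in total RNA and 2 in pulldown, a separation that was not counted over all miRNAs. For orientation, and by another measure, limma called 14% of 422 miRNAs in total RNA and 2.34% of 897 in pulldown in this contrast, in either direction. The members were picked on it, so nothing is read from these counts. The plot of values by cell line shows that both single knockouts overlapped the parental libraries for every member.

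**Figure D1:**
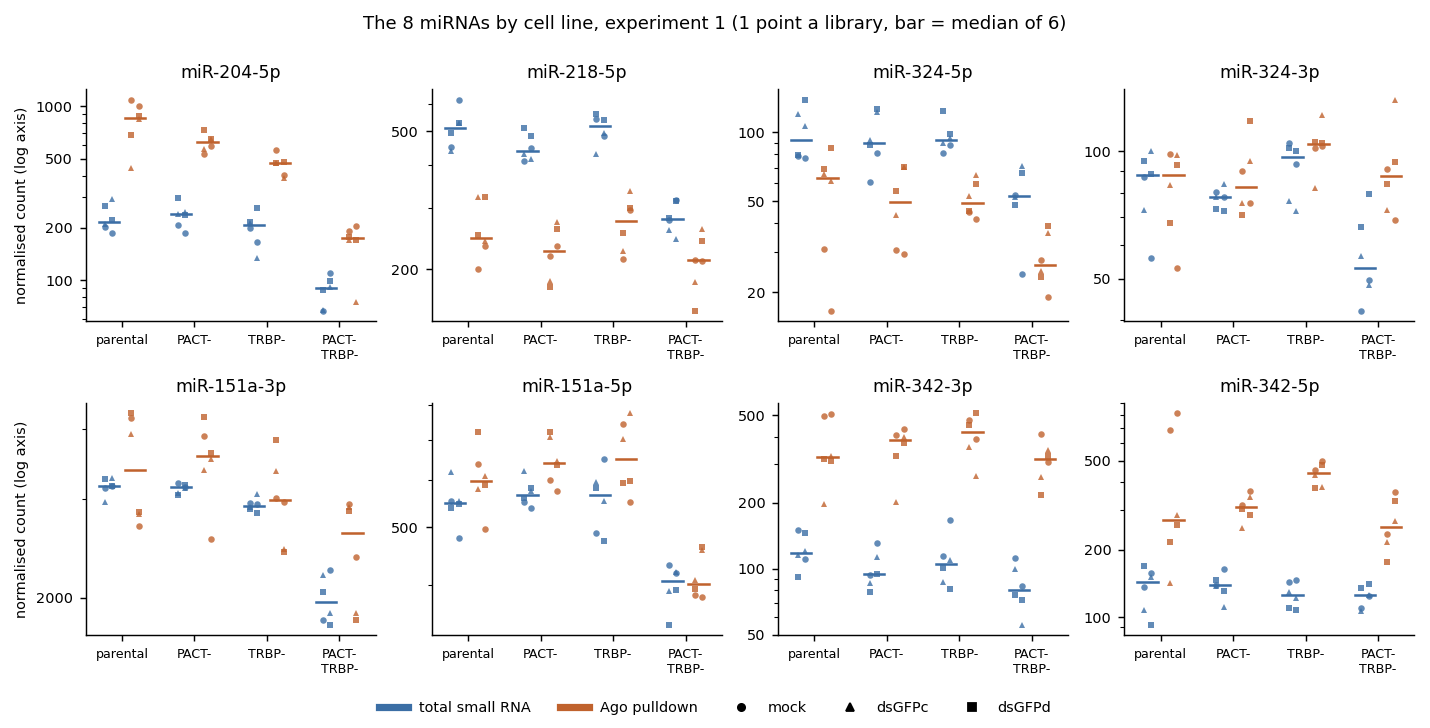
Normalised counts (log axis) of the 8 miRNAs in each line of experiment 1, with total RNA in blue and Ago pulldown in orange, 1 point per library and a bar at the median of 6. For miR-204-5p the median was 215.5 in parental total RNA and 89.73 without PACT and TRBP, and 860.4 and 174.7 in pulldown, while miR-342-5p overlapped between all 4 lines in total RNA.

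The single knockouts ask whether loss of either partner gives the same fall. They share the parental libraries with the contrast of the choice. Without PACT, 0 of 8 members were called by limma in total RNA (1.42% of all miRNAs were) and 0 in pulldown (0% of all). At an unadjusted p under 0.05 there were 1 and 0 members, and edgeR and DESeq2 called 0 in both. Without TRBP, limma, edgeR and DESeq2 called 0 members in total RNA, with 0 at an unadjusted p, where limma called 20.4% of all miRNAs. In pulldown without TRBP, 1 member fell, against 4.01% of all.

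That member was miR-204-5p. Its pulldown values without TRBP were 385.1, 470.3 and 561.0, and without PACT 534.2, 621.0 and 727.5, beside the parental 444.3, 860.4 and 1092.0. The lines overlapped, the lowest parental library being a dsGFPc one. miR-204-5p fell by 0.79 without TRBP (SE 0.19, 95% interval -1.18 to -0.40, limma adjusted p = 0.0097), and leaving out any 1 of the 12 libraries kept the call (adjusted p 0.00201 to 0.046). Without PACT it differed by -0.36 (interval -0.75 to 0.03, limma adjusted p = 0.996). In total RNA its differences were -0.23 (interval -0.51 to 0.06) without TRBP and 0.04 (interval -0.25 to 0.33) without PACT. By transfection, its mean log2 values in parental pulldown were 10.03 (mock) and 9.43 (dsRNA), with every dsRNA library below both mock libraries. The pulldown means were 9.137 and 9.339 without PACT and 8.899 and 8.815 without TRBP. Whether the line differences depend on transfection was not tested.

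The single knockouts were also set against each other, a difference that holds no library of the choice, although those libraries enter the estimate of its spread. No member was called by limma in total RNA or in pulldown, where 26.8% and 4.01% of all miRNAs were. At an unadjusted p under 0.05 there were 1 and 2 members, and edgeR and DESeq2 called 0 in both. miR-204-5p differed by -0.26 in total RNA (interval -0.55 to 0.02) and -0.43 in pulldown (interval -0.82 to -0.04, limma adjusted p = 0.245), TRBP knockout minus PACT knockout. miR-151a-5p differed by -0.04 (interval -0.21 to 0.12) and 0.02 (interval -0.26 to 0.30), so a difference between the single knockouts above 0.30 on this scale lay outside its intervals. Scaling to the same sum added miR-151a-3p in total RNA, and a fit of these 2 lines alone added miR-342-5p in pulldown, the member with the largest difference there, 0.49 (interval 0.01 to 0.98).

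Side by side, the difference of the double knockout from the parental line was below the sum of the 2 single differences for every member, by amounts that varied widely. The gap was -1.21 for miR-204-5p, -0.85 for miR-324-5p and -0.67 for miR-218-5p in total RNA, but -0.10 for miR-342-3p and -0.08 for miR-342-5p. In pulldown it ran from -1.17 for miR-204-5p and -0.83 for miR-324-5p to -0.15 for miR-218-5p. These gaps hold the libraries of the choice and were not tested.

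**Figure D2:**
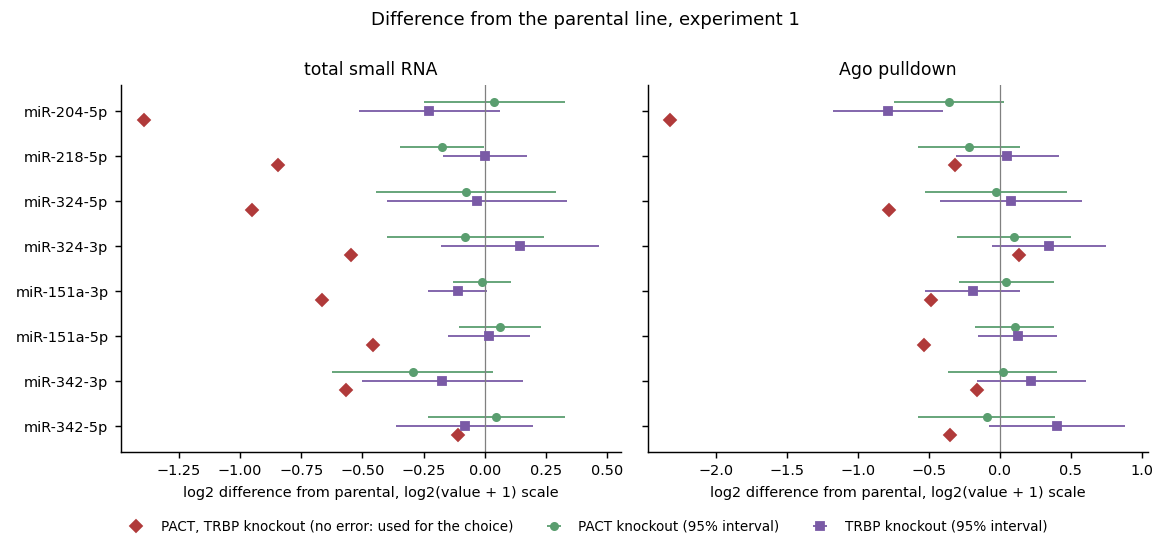
Difference from the parental line in log2(value + 1) for each miRNA, in total RNA (left) and Ago pulldown (right), for the PACT knockout (green), the TRBP knockout (purple), both with 95% intervals, and the double knockout (red, no error because it chose the members). Of the single knockouts, only the called one, miR-204-5p in pulldown without TRBP at -0.79, is a change that passed the test.

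Transfection of long dsRNA is a separate contrast over the 4 lines of experiment 1, mock against the mean of dsGFPc and dsGFPd. In total RNA 2 of 8 members were called (22.5% of all miRNAs were) and in pulldown 3 (17.6%). miR-324-5p rose in both fractions, miR-342-3p fell in both, and miR-342-5p fell in pulldown. miR-21-5p, which the protocol uses to check the pulldown, was also called, at 0.19 in total RNA and 0.53 in pulldown (limma adjusted p = 0.0086 and 0.0024).

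miR-324-5p had 24.08, 77.92 and 88.27 normalised counts (lowest, median and highest) in the 8 mock libraries of total RNA and 48.26, 93.53 and 138.9 in the 16 with dsRNA. In pulldown these were 16.55, 29.96 and 44.59 against 23.26, 57.26 and 85.2. The pooled groups overlapped, but within a line every dsRNA library lay above both mock libraries except in the double knockout, in both fractions. The rise was 0.50 (SE 0.13, limma adjusted p = 0.0067) in total RNA and 0.81 (SE 0.18, limma adjusted p = 0.0024) in pulldown, and both calls held in 24 of 24 fits that each left out 1 library. By line, the pulldown difference was 1.58 in parental cells, 0.95 in the PACT knockout, 0.34 in the TRBP knockout and 0.37 in the double knockout. Differences between lines were not tested. The other arm, miR-324-3p, differed by 0.13 in total RNA (interval -0.11 to 0.37) and 0.14 in pulldown (interval -0.16 to 0.44).

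miR-342-3p had 305.4, 420.8 and 506.8 in the mock pulldown libraries and 196.7, 325.0 and 509.7 with dsRNA. It fell by 0.43 in pulldown (SE 0.14, limma adjusted p = 0.032) and by 0.33 in total RNA (SE 0.12, limma adjusted p = 0.045). Both calls were fragile, since 12 of 24 fits without 1 library kept the call in total RNA and 19 of 24 in pulldown, and in pulldown it was not called by edgeR (adjusted p = 0.0604), with quantile normalization (0.0877), with equal sums (0.0547) or without the filter (0.0659). In total RNA the call was lost without the first parental mock, dsGFPc or dsGFPd library, the first dsGFPc or dsGFPd or second mock library of the PACT knockout, the first dsGFPc, second dsGFPd or second mock library of the TRBP knockout, or the first mock, second dsGFPc or second dsGFPd library of the double knockout, with differences of -0.34 to -0.27. In pulldown it was lost without either parental mock library, the second mock library of the PACT knockout, or the first mock or first dsGFPd library of the double knockout, with differences of -0.43 to -0.38.

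miR-342-5p, the other arm, had 235.9, 408.6 and 811.2 in mock pulldown and 141.7, 285.1 and 480.2 with dsRNA. It fell by 0.61 there (SE 0.18, limma adjusted p = 0.015), and by line the difference was -1.77 in the parental line and between -0.19 and -0.28 in the 3 knockout lines. The parental mock libraries, at 687.5 and 811.2, stood above the other 22. Leaving out either parental mock library ended the call (-0.50 and -0.46, adjusted p = 0.062 and 0.065). In total RNA miR-342-5p differed by -0.15 (interval -0.36 to 0.06). The other 5 members were not called in either fraction, among them miR-151a-3p, whose total RNA interval was -0.11 to 0.07 and whose pulldown interval was -0.24 to 0.26. miR-218-1-3p, the other arm of a miR-218 hairpin, rose in pulldown by 1.15 (limma adjusted p = 0.024), where its 5p arm differed by 0.11.

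In experiment 2 the same contrast called 0 members by limma in total RNA (2.95% of all) and in pulldown (0.656%), with 1 at an unadjusted p under 0.05 in each and 0 by edgeR or DESeq2. miR-324-5p differed by -0.30 in total RNA (interval -1.44 to 0.83) and -0.82 in pulldown (interval -2.44 to 0.79), with the Dicer knockout, where it had 0 to 5 reads, in the fit. Without the Dicer knockout miR-324-5p was higher with dsRNA but not called. The differences were 0.57 in total RNA (SE 0.20, limma adjusted p = 0.0998) and 0.54 in pulldown (SE 0.72, limma adjusted p = 0.913). The 1 at an unadjusted p in total RNA was miR-218-5p (0.96, limma adjusted p = 0.136), and in pulldown miR-324-3p (1.29, limma adjusted p = 0.339). With the Dicer knockout left out, these differences were 0.15 and 0.26.

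**Figure D3:**
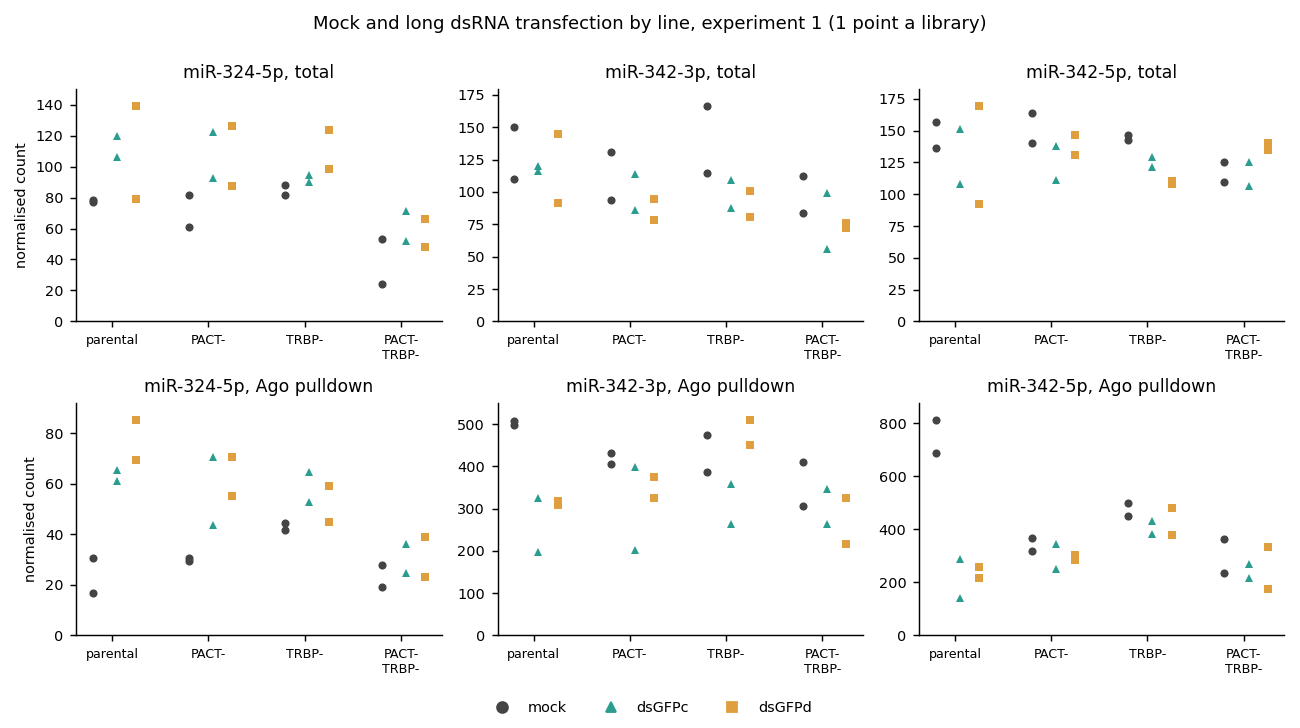
Normalised counts of miR-324-5p, miR-342-3p and miR-342-5p in mock (black), dsGFPc (green) and dsGFPd (yellow) libraries of experiment 1, by line, 1 point per library, with total RNA above and Ago pulldown below. In pulldown the 2 parental mock libraries of miR-342-5p stand at 687.5 and 811.2, above all others.

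Pulldown against total RNA shows how much of each member was bound to Ago relative to other miRNAs. In the parental line of experiment 1, 5 of 8 members were called (65.5% of all miRNAs were), and in experiment 2, 3 of 8 (29.5%). The median difference of all miRNAs was 0.45 and 0.31, and members are read against it. miR-204-5p was higher in pulldown by 1.80 in experiment 1 (SE 0.21, limma adjusted p = 2.59e-06) and 2.31 in experiment 2 (SE 0.37, limma adjusted p = 0.000267). In experiment 2 its total RNA values were 34.28, 63.41 and 96.32 and its pulldown values 187.1, 259.0 and 511.3, with no overlap.

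Both miR-342 arms were also higher in pulldown in both experiments. miR-342-3p differed by 1.50 and 1.58 and miR-342-5p by 1.30 and 1.84 (limma adjusted p = 0.0068 at most). miR-218-5p and miR-324-5p were lower in pulldown in experiment 1, by -0.97 and -1.004 (limma adjusted p = 8.07e-05 and 0.0024), and were not called in experiment 2, at -0.50 and -1.08, although miR-324-5p was called without the first mock (-1.35) or first dsGFPc (-1.35) pulldown library. The control miR-16-5p differed by -0.66 and -0.61 and miR-21-5p by -0.61 and -0.22. miR-324-3p and both miR-151a arms were not called in either experiment, with differences between -0.18 and 0.48.

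The pulldown to total ratio was then compared between lines as an interaction. By limma, 0 members were called without PACT or without TRBP (0% of all in both), in the lines labelled Ago2 (1%) or Ago1/2 knockout (1.67%), or in the Dicer knockout (4.22%). The unadjusted test gave 1 member without TRBP and 0 in the others, and edgeR and DESeq2 called 0 throughout. The 1 was miR-204-5p, whose ratio differed by -0.56 (interval -1.05 to -0.08, limma adjusted p = 0.941). In the double knockout its ratio differed by -0.93, given without a test.

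**Figure D4:**
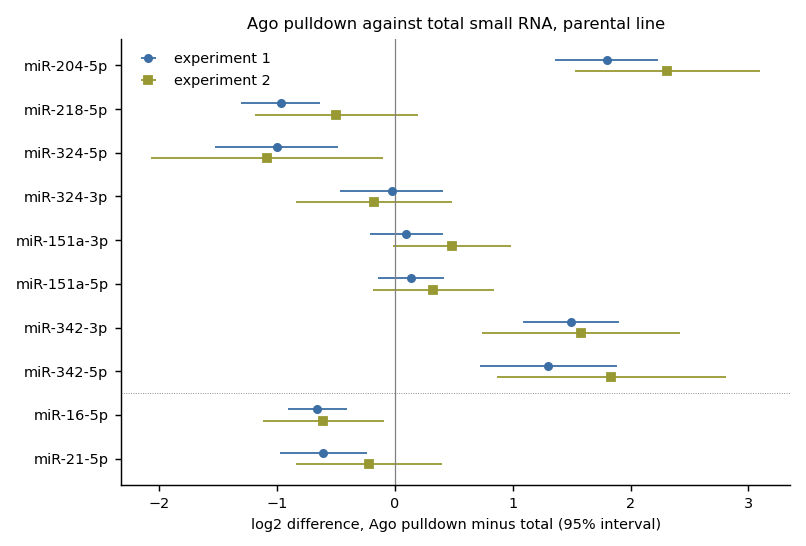
Difference between Ago pulldown and total RNA in the parental line, in log2(value + 1) with 95% intervals, for the 8 members and for miR-16-5p and miR-21-5p below the dotted line, in experiment 1 (blue) and experiment 2 (olive). miR-204-5p and both miR-342 arms lie above 1 in both experiments.

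Before the Ago knockouts of experiment 2 are described, a limit of their labels is given. The difference between the libraries labelled Ago1/2 and those labelled Ago2 knockout went in opposite directions in total RNA and pulldown for 75.2% of 592 miRNAs, with a correlation of -0.763 across miRNAs, which are not independent replicates. miR-204-3p, the other arm of miR-204, shows it. In total RNA its medians were 0 in parental cells, 8.09 in the libraries labelled Ago2 knockout and 51.2 in those labelled Ago1/2 knockout, while in pulldown they were 1.14, 98.8 and 4.44. miR-218-1-3p had medians of 6.08, 5.20 and 55.1 in total RNA and 10.6, 47.6 and 3.54 in pulldown. Values of either fraction are therefore given for the library labelled so, and no direction is drawn between the 2 Ago knockouts.

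miR-204-3p rose in total RNA of the libraries labelled Ago2 knockout (2.56, limma adjusted p = 0.043) and Ago1/2 knockout (5.20, limma adjusted p = 5.65e-06) and in pulldown of those labelled Ago2 knockout (5.11, limma adjusted p = 0.000209). miR-218-1-3p rose in total RNA of those labelled Ago1/2 knockout (3.70, limma adjusted p = 0.0018). The groups called did not overlap the parental libraries, except miR-204-3p in total RNA labelled Ago2 knockout, whose lowest value of 2.05 lay below the highest parental one of 2.98.

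Of the members themselves, limma called 0 in the 4 comparisons with parental cells, where it called 5.29% of all miRNAs for Ago2 and 22.9% for Ago1/2 in total RNA, and 24% and 2.76% in pulldown. At an unadjusted p under 0.05 there were 0 and 1 members in total RNA and 1 and 0 in pulldown. edgeR called 0, 2, 1 and 0 members and DESeq2 1, 4, 0 and 0, in the same order. These fits share 1 estimate of spread with the Dicer knockout libraries, which have few reads.

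A fit without the Dicer knockout gave other calls for miR-204-5p. In total RNA its values were 34.28, 63.41 and 96.32 in parental cells, 132.8, 183.6 and 213.2 in the libraries labelled Ago2 knockout, and 145.2, 218.9 and 286.4 in those labelled Ago1/2 knockout. Neither knockout group overlapped the parental one. The differences of 1.59 and 1.87 were called in that fit (limma adjusted p = 3.99e-05 and 1.33e-06). With the Dicer knockout included, the limma adjusted p were 0.483 and 0.132. Parental miR-204-5p was itself lower in experiment 2 than in experiment 1. As a log2 share of library reads it differed by -1.46 in total RNA, where the median miRNA differed by 0.02. In pulldown these values were -1.09 and -0.08. Whether the low parental level accounts for the Ago knockout differences was not tested. The fit without Dicer called 2 members for Ago2 in total RNA (19.3% of all), with miR-324-5p at 0.70, and 3 for Ago1/2 (45.5%), with miR-324-5p at 0.93 and miR-324-3p at -1.05.

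In pulldown the fit without Dicer called 1 member for Ago2, miR-204-5p (limma adjusted p = 0.029, 36% of all called), and 0 for Ago1/2 (7.07%).

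In pulldown of experiment 2 the replicate numbers paired the libraries outside the Dicer knockout. miR-204-5p was higher in replicate 2 in 9 of 9 groups, by 1.33 on average, and miR-324-5p lower in 9 of 9, by -1.77. With the number as a block, miR-204-5p was called at 1.18 in the libraries labelled Ago2 knockout (limma adjusted p = 0.029), the 1 member called there (26.2% of all), and 0 were called for Ago1/2 (3.41%). Without the block, this difference was smaller and not called when libraries were scaled to the same sum (0.51, limma adjusted p = 0.423), which moved the median of all miRNAs by -0.55, with quantile normalization (0.79, 0.203) or by edgeR (0.57, 0.38). With the block and without the Dicer knockout, 3 members were called for Ago2 (43.3% of all): miR-204-5p at 1.18 (limma adjusted p = 3.75e-06), miR-342-5p at -0.89 (0.0098) and miR-342-3p at -0.65 (0.024). For Ago1/2 the same fit called miR-204-5p at 0.87 (limma adjusted p = 0.000703, with 11.5% of all called). The pulldown values of miR-204-5p were 187.1, 259.0 and 511.3 in parental cells, 289.6, 711.4 and 1317.7 for Ago2 and 293.1, 575.6 and 892.8 for Ago1/2, which overlap.

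The arm ratio of miR-324 differed as well. The mean log2 ratio of 5p to 3p in total RNA was -0.17 ± 0.66 (SD, n = 6) in parental cells, 1.19 ± 0.62 in the libraries labelled Ago2 knockout and 1.81 ± 0.49 in those labelled Ago1/2 knockout. The last group did not overlap the parental libraries, whose highest ratio was 0.94, the lowest of the group being 0.98. The change of 1.99 for Ago1/2 (SE 0.75, limma adjusted p = 0.037, with 41.2% of 153 hairpins called) was lost with a pseudocount of 0.5 or when any of 8 of the 12 libraries was left out (both mock, the first dsGFPc and the first dsGFPd library of the parental line, and all 4 dsRNA libraries labelled Ago1/2 knockout), and was called without the Dicer knockout (adjusted p = 0.000179, with 60.3% of 151 hairpins called). Without the Dicer knockout the ratio was also called for Ago2 in total RNA, at 1.36 (adjusted p = 0.0102, with 36.4% of hairpins called). In the fits with all lines, limma called no other arm ratio of miR-324, miR-151a or miR-342 for Ago2 (6.54% of hairpins called in total RNA and 25.5% in pulldown) or for Ago1/2 in pulldown (1.63%). It called none in total RNA without PACT (0%) or without TRBP (0.99%) or between these lines (1.98%), and none in pulldown of these comparisons (0% of hairpins). In the double knockout of PACT and TRBP the ratio of miR-324 differed by -0.41 in total RNA and -0.92 in pulldown and that of miR-342 by 0.46 and -0.19, without a test.

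**Figure D5:**
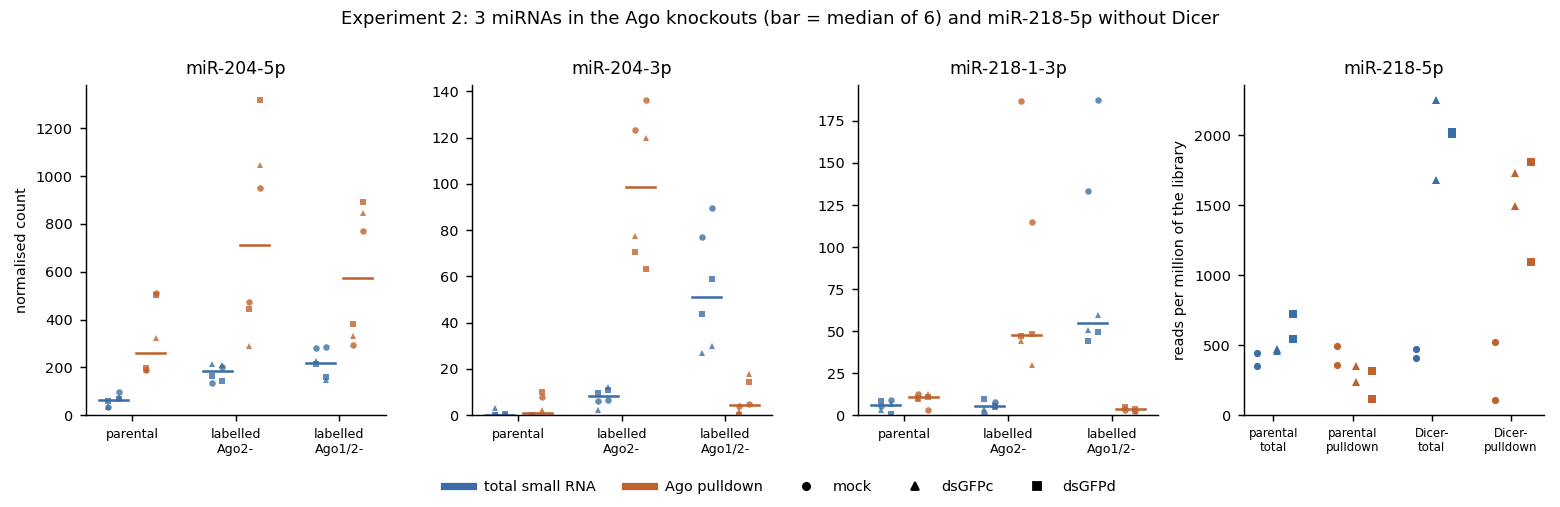
Experiment 2, with total RNA in blue and Ago pulldown in orange, 1 point per library: normalised counts of miR-204-5p, miR-204-3p and miR-218-1-3p in the parental line and the libraries labelled Ago2 or Ago1/2 knockout (bar at the median of 6), and reads of miR-218-5p per 1000000 library reads with and without Dicer. The 2 3p arms are high in opposite groups in the 2 fractions, and miR-218-5p without Dicer reaches 2252.1 with dsRNA.

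Dicer makes most mature miRNAs, and its knockout libraries held few miRNA reads. Called were 6 of 8 members in total RNA (52.4% of all miRNAs) and 6 in pulldown (50%). In total RNA edgeR called 5 and DESeq2 6, and in pulldown 6 and 4. A fit of only these 2 lines called 5 in each, losing miR-342-3p in total RNA (limma adjusted p = 0.0686) and miR-151a-3p in pulldown (0.0962). In total RNA, miR-324-5p fell by 2.70, miR-324-3p by 3.74, miR-342-3p by 2.06 and miR-151a-3p by 1.05 (limma adjusted p = 0.0122 at most). They stood at 0 to 5 reads per library for miR-324-5p, 0 to 4 for miR-324-3p and 0 to 5 for miR-342-3p, against at least 134 reads of each in parental libraries, and at this depth a lower level was not detectable. The pulldown changes were -3.45, -3.23, -1.92 and -1.09. Mock and dsRNA libraries differed here, which was not tested. In total RNA miR-151a-3p had mean log2 values of 11.24 (mock) and 9.72 (dsRNA) without Dicer, and 11.28 in both in parental cells. In pulldown miR-324-5p had 4.90 (mock) and 0 (dsRNA) without Dicer, against 5.08 in both in parental cells. Those Dicer knockout values rest on 0 to 2 reads of miR-324-5p per library. The other arm, miR-324-3p, went the opposite way there, with 0 (mock) and 4.39 (dsRNA), against 6.29 and 6.09 in parental cells. No effect of dsRNA is therefore read from either arm in pulldown without Dicer. In mock total RNA, miR-324-3p and miR-342-3p were lower already, at 2.72 and 4.78 against the parental 6.28 and 6.61.

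miR-218-5p rose by 2.90 in total RNA (SE 0.45, limma adjusted p = 8.93e-06) and 3.13 in pulldown (SE 0.70, limma adjusted p = 0.000805). miR-151a-5p was called higher by 1.32 and 1.48, but scaled to the same sum it stood at -0.27 and -0.14, so its direction depends on the scaling. The median of all miRNAs was -0.76 in total RNA and -1.24 in pulldown, and the same-sum scaling moved it by -0.82 and -0.95. Under that scaling miR-218-5p was still higher, by 1.30 and 1.51 (limma adjusted p = 0.0031 and 0.032). miR-204-5p and miR-342-5p were not called, with intervals of -1.94 to 1.66 and -2.45 to 0.86 in total RNA. Under other scalings miR-342-5p was called lower, at -2.28 in total RNA (limma adjusted p = 0.0092) and -1.88 in pulldown (0.0139) with equal sums, and at -1.51 in total RNA (0.0329) with quantile normalization. miR-204-5p was called at -1.32 (limma adjusted p = 0.0169) in pulldown with equal sums.

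As a share of library reads, which is the equal-sum scale and depends on what else a library holds, miR-218-5p without Dicer stood at 410 and 476 reads per 1000000 library reads in the 2 mock libraries of total RNA and 1680.9, 2007.8, 2019.0 and 2252.1 in the 4 with dsRNA. In pulldown the mock libraries had 106 and 523 and the dsRNA libraries 1095.3 to 1807.5. The dsRNA libraries were higher than the mock libraries in both fractions, while the mock libraries of total RNA lay within the parental range of 349 to 724. This difference between dsRNA and mock within 1 line was not tested. The counts behind the mock values were 19 and 28 reads. The tables list miR-218-5p in 2 rows for its 2 hairpins, and these values are of the row with the larger sum of normalised counts. The other row held 42% to 48.1% of the reads of both in parental total RNA but 8.58% to 11.6% in the Dicer knockout with dsRNA, although the mature sequence of both hairpins is the same.

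Across the 48 libraries of experiment 1, with levels centred within each fraction, the miRNAs outside the members whose pattern was most like miR-204-5p were let-7e-5p (Pearson r = 0.856), let-7b-5p (0.854) and miR-10a-5p (0.673), of 408 miRNAs. The closest to miR-342-5p was miR-760 (0.805), to miR-218-5p let-7g-5p (0.777) and to miR-151a-5p miR-10a-5p (0.747). Among the members, miR-204-5p correlated with miR-151a-5p at 0.719 and with miR-324-3p at 0.185, and the arms of 1 hairpin at 0.623 for miR-151a and 0.523 for miR-324 and miR-342. The libraries share lines and transfections and include those in which the members were chosen to be low together, so part of these values is set by the choice and they only describe likeness. miR-211-5p, which has the seed of miR-204-5p, had at most 5.18 normalised counts in parental total RNA of experiment 1 and 7.82 in parental pulldown.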

How the data were processed

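The authors deposited 1 table per experiment with 1 row per mature miRNA and 1 column per library. Per the submitters' processing notes STAR and GRCh38 were used, and the counter, annotation and versions are not given in the sources used here. As deposited, the values are a normalised signal (normalised counts), whole multiples of 1 step per library. Dividing by the step gave whole reads for 100% of values (tolerance 0.01 of a read). A read was worth 4.862 to 32.54 in the Dicer knockout and 0.060 to 2.013 elsewhere. Of 2883 rows, repeated names kept the row with the largest sum of normalised counts over both experiments, which left 2652. The table named for experiment 3 repeats that of experiment 2, so its 24 libraries were not analysed here.

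The members, lists and tests were chosen with earlier results of these data known. Named miRNAs are the members, the other arms of their hairpins, miRNAs with their seed, the pulldown controls, the neighbours of the choice and those most alike. Log2(value + 1) was fitted with limma 3.58.1 in R 4.3.3 (lmFit, eBayes with trend and robust options) over the 24 libraries of an experiment and fraction, with additive line and transfection, for miRNAs with at least 10 reads in at least 6 libraries. Benjamini-Hochberg adjustment ran over all miRNAs tested. Of 48 replicate pairs 0 were identical, and chi-square per degree of freedom was at least 7.959. Replicate numbers paired libraries most clearly in pulldown of experiment 2 without the Dicer knockout, by the data and not the labels. There the deviations of all 36 pairs of groups correlated above 0.1 (lowest 0.106), against 21 of 66 in pulldown of experiment 1. Single members also shifted elsewhere. miR-151a-5p was higher in replicate 2 in 9 of 9 groups of experiment 2 total RNA, and miR-151a-3p in 1 of 12 of experiment 1 pulldown.

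Alternatives were equal sums, quantile normalization, no filter, pseudocounts of 0.1 and 10 (0.5 for arms), a replicate block, edgeR 4.0.16 and DESeq2 1.42.0 on recovered reads, only the lines compared, no Dicer knockout and each library left out. Chosen after seeing the data were both rows of miR-218-5p summed, dsGFPc or dsGFPd alone, exchanged Ago labels in pulldown, arm ratios without the Dicer knockout, and the block without it. The scripts were tested on simulated data.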

Additional observations from a re-analysis of the deposited data

Results flagged for a closer look

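Among 128 groups of 6 libraries, 5 held 1 library far from the others by Dixon's test, which chance gives in about 1 of 20 groups. miR-204-5p was low, at 75.26, in the second dsGFPc pulldown library of the PACT and TRBP double knockout, where the next was 170.6 and the highest 204. miR-151a-3p was low, at 3340.0, in the second dsGFPc pulldown library labelled Ago2 knockout (next 3815.7). miR-204-5p was high, at 1102.1, in the second dsGFPc pulldown library of the Dicer knockout (next 479.8). miR-342-5p was high, at 170.2, in the second mock total RNA library labelled Ago1/2 knockout (next 88.62). miR-218-5p was high, at 347.5, in the second dsGFPd total RNA library labelled Ago2 knockout (next 243.9).

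For 2 members, all dsRNA libraries moved one way from mock in 1 line of experiment 2 and the other way in another line. In total RNA miR-342-5p differed by 4.58 in the Dicer knockout and -0.49 in the parental line, a gap of 5.07. In pulldown miR-324-5p differed by 1.80 in the libraries labelled Ago1/2 knockout and -4.90 in the Dicer knockout, a gap of 6.70. Neither gap was tested, and the Dicer knockout libraries hold 0 to 30 reads of miR-342-5p in total RNA and 0 to 2 of miR-324-5p in pulldown.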

How the results depend on the processing

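With equal sums the TRBP minus PACT knockout comparison gave 1 called member in total RNA, and with only these lines 1 in pulldown, against 0. For Ago2 in total RNA the count was 1 with DESeq2, 2 with only these lines and 2 without the Dicer knockout. For Ago1/2 it was 1 with quantile normalization, 1 with a pseudocount of 10, 2 with edgeR, 4 with DESeq2, 3 with only these lines and 3 without the Dicer knockout, all against 0. In Ago2 pulldown it was 1 with the replicate block, with only these lines and without the Dicer knockout (miR-204-5p), 1 with edgeR (miR-342-5p, -1.85, adjusted p = 0.0261), and 3 with the block and without the Dicer knockout, which gave 1 in Ago1/2 pulldown. The block changed no other count of called members. With dsRNA in experiment 1, total RNA gave 1 without the filter, 1 for dsGFPc alone and 1 for dsGFPd alone, against 2, and pulldown gave 1 for dsGFPd alone, against 3, and 2 with edgeR, quantile normalization, equal sums or no filter, each without miR-342-3p. Of the 3 arm ratios, 1 was called for Ago2 in total RNA without the Dicer knockout, and 0 for Ago1/2 with a pseudocount of 0.5. Equal sums turned miR-151a-5p in the Dicer knockout to -0.27 (total RNA) and -0.14 (pulldown), and miR-204-5p there to -1.32 (pulldown). In total RNA of the Dicer knockout the count stayed at 6 with equal sums or quantile normalization, with miR-342-5p in place of miR-151a-5p, and in pulldown it ran from 4 with DESeq2 to 7 with equal sums. The cause of these changes was not tested.

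Leaving out 1 library gave 1 to 3 called members with dsRNA in experiment 1 in each fraction, 5 to 6 for the Dicer knockout in pulldown, 3 to 4 for pulldown against total RNA in experiment 2 and 0 to 1 arm ratios for Ago1/2 in total RNA. The other counts did not move. They were 6 for the Dicer knockout in total RNA and 5 for pulldown against total RNA in experiment 1. TRBP in pulldown kept 1, and the rest 0. The 8 and 7 members lower in the double knockout also stayed, but the members were picked on that contrast, so nothing is read from it. With equal sums miR-342-5p was not lower there in total RNA. In pulldown without Dicer, miR-151a-3p lost its call without the first dsGFPc library (-0.91) or the first dsGFPd library (-0.71) of that line. With dsRNA in total RNA of experiment 1, miR-204-5p was called, at 0.30, without the second mock library of the double knockout. Over all miRNAs, edgeR and DESeq2 called 285 and 286 for the Dicer knockout in total RNA, against 337 by limma, 262 and 263 against 381 in pulldown, and 53 and 90 against 34 for Ago2 in total RNA. Depth limits the Dicer knockout most, where a single read is worth up to 32.54 normalised counts.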

Other observations

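The parental line was sequenced in both experiments, whose tables were normalised separately. In total RNA, miR-204-5p in experiment 2 differed from experiment 1 by -1.46 on the log2 scale of reads per 1000000, where the median of 408 miRNAs differed by 0.02. In pulldown the difference was -1.09, against a median of -0.08. Of the other members, miR-218-5p differed by -0.37 in total RNA and miR-324-3p by 0.48. The labels give no time or passage for either experiment, and these differences were not tested. The parental libraries of experiment 1 are also 1 side of the contrast of the choice, so the differences depend on it. For size, miR-204-5p fell by -1.39 in total RNA without PACT and TRBP, on the log2(value + 1) scale.

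The other arms of the miR-204 and miR-218 hairpins were rare in parental cells. miR-204-3p had 0 to 14 reads per library in parental total RNA of experiment 2 and 76 to 382 in the libraries labelled Ago1/2 knockout. miR-218-2-3p had 0 to 16 reads in parental total RNA and 0 to 29 in those labelled Ago1/2 knockout. miR-151b, whose hairpin lies 140 bases from MIR342 within EVL, was higher in pulldown than in total RNA of parental cells in experiment 2 by 1.71 (limma adjusted p = 0.0068) and differed by -0.15 in experiment 1.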
